A study of Mus musculus with 4 samples.

Results

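Olig1, Olig2, Sox10, Zfp536, Nkx6-2 and Myrf are transcription factors of the oligodendrocyte lineage, the glial cells that myelinate axons of the central nervous system. They were followed in the whole mouse spinal cord at postnatal day 14, when myelin is being laid down there. They are 6 of the 369 genes that the authors' deposited table of changed transcripts names singly, out of 35557 transcript clusters measured on each array. Each was found by its symbol in that table and had 1 transcript cluster, the set of probes that the array reads as a single transcript. For Olig1, Olig2, Zfp536 and Nkx6-2 the RefSeq accession in the table gave the same gene. The table gives no such accession for Sox10 or for Myrf. It lists Myrf under the older symbol Gm98, and Myrf was matched by that symbol alone.

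In the 2 Sip1 cKO samples both copies of Sip1 were floxed (Sip1c/c;Olig1-Cre). The 2 control samples came from littermates with a single floxed copy and the same Cre (Sip1c/+;Olig1-Cre), so both groups carried the recombinase driven by Olig1 and a floxed allele, on a mixed c57.129 background. The labels call the samples biological replicates and do not say whether an RNA pooled several animals, nor whether Olig1-Cre disrupts a copy of Olig1. With 2 arrays a group the number of arrays limits the precision of every value.

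Oligodendrocytes arise from dividing progenitors. Olig1 and Olig2, related basic helix-loop-helix factors, and Sox10, an HMG-box factor, are present from the progenitor on and stay on in the mature cell. Myrf, a membrane-bound factor that cuts itself free to enter the nucleus, comes on at differentiation and acts with Sox10 on myelin genes, and Nkx6-2 is a homeobox factor of differentiated oligodendrocytes. Zfp536 is a zinc finger protein known to restrain retinoic acid driven neuronal differentiation in culture. Its place in the lineage is less certain, so it was set with neither the early factors (Olig1, Olig2, Sox10) nor the late ones (Nkx6-2, Myrf).

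All values are on the log2 scale of the deposited array values, in which a difference of 1 is a doubling. Array medians lay between 6.62 and 6.70, and over the clusters the Sip1 cKO arrays correlated with Pearson's r = 0.993, the control arrays with 0.990 and arrays of different groups with 0.983 to 0.984. Zeb2, the current name of Sip1, a zinc finger repressor and the gene targeted here, read 8.61 and 8.66 on the Sip1 cKO arrays, against 10.29 and 10.47 on the control arrays, so the arrays follow their labels. Whether its probes lie in the deleted part was not analysed here. Of the cell type markers, 7 of 8 for mature oligodendrocytes and 2 of 6 for newly formed ones are named in the table. Those of progenitors, astrocytes, microglia, neurons and endothelial cells were not analysed here.

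Of the 6 factors, 5 fell in Sip1 cKO cord and 1, Olig1, did not pass the test (limma over all clusters, adjusted p under 0.05). On each of the 6 both Sip1 cKO arrays read below both control arrays. Myrf was 10.4-fold lower, Sox10 4.34-fold, Nkx6-2 3.25-fold, Zfp536 2.39-fold and Olig2 1.78-fold. Over all clusters 0.858% were called lower and 0.219% higher, and in 25.1% both Sip1 cKO arrays lay below both control arrays. At an unadjusted p under 0.05 all 6 factors were lower, and so were 8.51% of all clusters, with 7.95% higher. With control replicate 1 or control replicate 2 left out, 0 of the 6 and 0 of all clusters passed limma at the adjusted threshold, and all 6 were lower at an unadjusted p under 0.05. With Sip1 cKO replicate 1 or replicate 2 left out only Myrf of the 6 passed. The authors' table lists only clusters that differ by at least 1.45-fold on these same arrays, and 364 of its 369 named genes had a lower mean in Sip1 cKO and 55.3% of them were called lower, so nothing about these factors is read from those shares. The factor nearest to that limit was Olig2, 1.76-fold in the authors' deposited table. The median log2 change of the 6 factors was -1.48, beside -1.29 for the 369 named genes and -0.01 for all clusters. In RNA of whole cord, fewer cells of the lineage and less RNA per cell cannot be told apart.

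**Figure D1:**
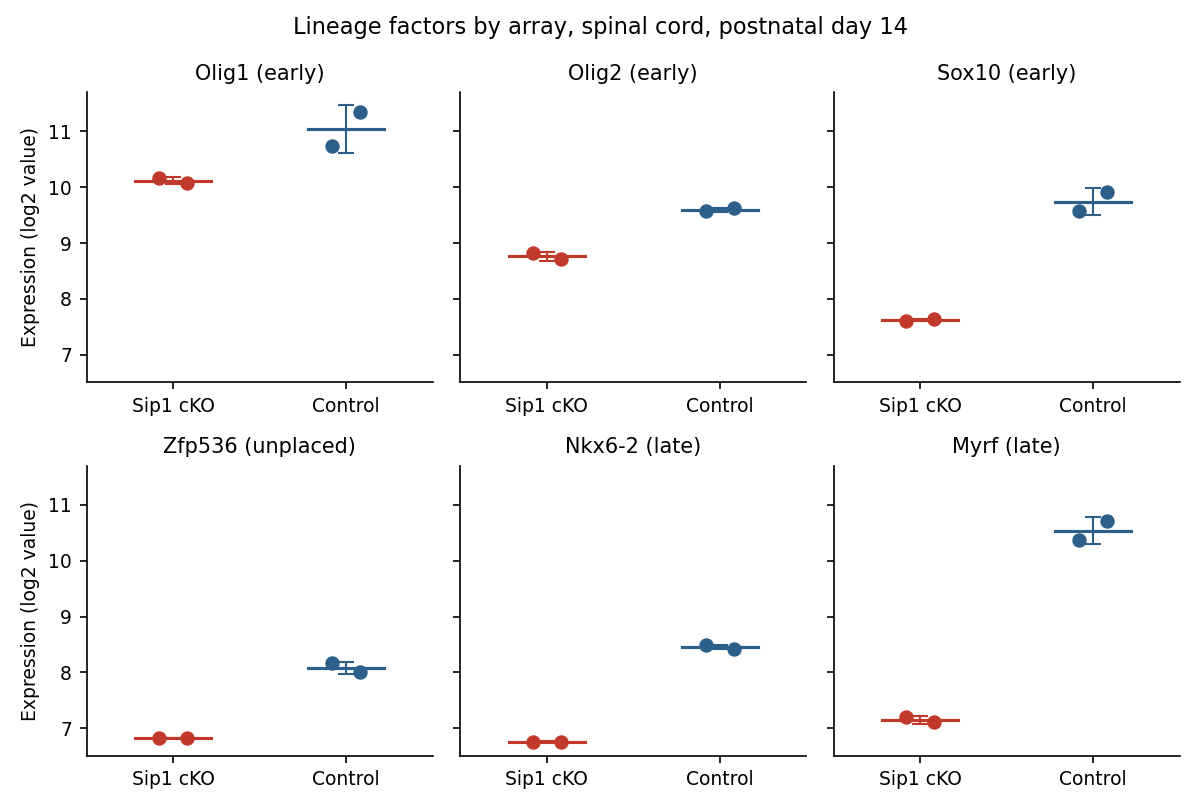
Expression of the 6 factors on each array. The vertical axis is the log2 value, points are arrays, horizontal bars are group means and error bars are SD (n = 2). For every factor both Sip1 cKO points lie below both control points, and the control points of Olig1 stand 0.61 apart.

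Promoter windows, from 250 bases before to 50 after the start of the gene, were available for 3 of the 6 factors. They are shown because Zeb2 is a repressor known to bind the letters CACCT, often as paired sites. All 3 factors were lower in Sip1 cKO cord, a direction shared by 364 of the 369 named genes. Whether Zeb2 acts on them directly was not tested. The sequences are those of RefSeq on build GRCm38.p6, given 5′ to 3′ on the strand of the gene, with CACCT or its complement AGGTG in capitals. Olig2 lies at chr16:91225300-91225599 on the plus strand, Nkx6-2 at chr7:139582748-139583047 and Zfp536 at chr7:37769703-37770002, both on the minus strand.
Olig2: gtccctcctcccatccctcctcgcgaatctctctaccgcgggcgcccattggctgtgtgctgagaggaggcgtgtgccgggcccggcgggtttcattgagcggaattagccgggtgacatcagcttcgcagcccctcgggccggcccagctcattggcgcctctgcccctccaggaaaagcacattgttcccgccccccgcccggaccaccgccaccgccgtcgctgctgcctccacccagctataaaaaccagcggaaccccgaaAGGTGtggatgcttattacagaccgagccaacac
Nkx6-2: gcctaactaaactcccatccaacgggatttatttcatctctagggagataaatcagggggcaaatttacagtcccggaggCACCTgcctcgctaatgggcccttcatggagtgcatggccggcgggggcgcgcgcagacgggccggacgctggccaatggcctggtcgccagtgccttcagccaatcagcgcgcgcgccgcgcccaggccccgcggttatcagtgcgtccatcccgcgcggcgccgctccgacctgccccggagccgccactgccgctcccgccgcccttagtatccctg
Zfp536: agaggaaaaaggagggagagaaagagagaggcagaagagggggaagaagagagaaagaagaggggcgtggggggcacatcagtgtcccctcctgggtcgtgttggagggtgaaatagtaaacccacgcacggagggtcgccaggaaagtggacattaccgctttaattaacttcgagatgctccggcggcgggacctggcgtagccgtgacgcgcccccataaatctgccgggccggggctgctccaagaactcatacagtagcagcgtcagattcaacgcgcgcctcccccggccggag
The Nkx6-2 window held CACCT once, at position 81 counted from 1 at the 5′ end, where it is part of CACCTG, an E-box (CANNTG) that is also the only E-box of the window. The Olig2 window held 1 match, as AGGTG at position 267, which is downstream of the start, and no E-box. The Zfp536 window held neither CACCT, on either strand, nor an E-box. Of 32851 RefSeq promoter windows of the same length 51.9% held CACCT on either strand, 20.2% held CACCTG or CAGGTG and 72.3% held an E-box. These are matches of letters only, and binding was not measured.

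Among the factors present from the progenitor on, Sox10 and Olig2 fell, Olig2 by less, and Olig1 did not pass the test. Olig2, needed to specify the lineage and motor neurons, read 8.82 and 8.71 on the Sip1 cKO arrays, against 9.57 and 9.62 on the control arrays. The groups were 0.75 apart at their nearest arrays, while replicates differed by 0.11 in Sip1 cKO and 0.06 in control. Its log2 change was -0.83 with a standard error of 0.10, leaving 56.2% of the control level, and it lay just inside the threshold (limma, adjusted p = 0.0497). The call was lost when arrays were centred on their medians (limma, adjusted p = 0.0630) and with the replicate number as a block (0.118). It was also lost with robust eBayes (0.0509), array weights (0.0514) and identical rows tested once (0.0559). Over the alternatives that keep all 4 arrays the adjusted p ranged from 0.0102 to 0.118. Without any 1 array the call was lost as well, with log2 changes of -0.885 to -0.776.

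Olig1, which acts in maturation and in repair of myelin, read 10.16 and 10.07 on the Sip1 cKO arrays, against 10.74 and 11.34 on the control arrays. The mutant arrays were close together and the control arrays were 0.61 apart, more than for any other factor. Its log2 change of -0.92 ± 0.22 (SE) was larger than that of Olig2 but did not pass (limma, adjusted p = 0.179, and 0.00985 unadjusted). The change was -1.23 without control replicate 1 and -0.62 without control replicate 2, so its size depended on which control array was kept. Control replicate 2 read higher than control replicate 1 for 4 of the 6 factors and for 82.1% of the named genes, against 47.0% of all clusters. The part of that difference between the control arrays in the change of Olig1 was not tested. In the RefSeq annotation Olig1 and Olig2 are neighbours, with 1 gene that codes for no protein listed between them.

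Sox10, which directs both glial fate and the myelin genes, fell to 7.61 and 7.63 on the Sip1 cKO arrays, against 9.57 and 9.91 on the control arrays. The mutant arrays differed by only 0.02, and the gap between the groups was 1.94. The log2 change was -2.12 ± 0.14 (SE), so that 23.0% of the control level was left (limma, adjusted p = 0.0183). Although it belongs with the early factors, Sox10 had the second lowest change of the 6.

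Both factors of differentiated cells fell. Nkx6-2 read 6.76 and 6.75 on the Sip1 cKO arrays, against 8.48 and 8.43 on the control arrays. It had the smallest spread of the 6, with a residual SD of 0.03, and a log2 change of -1.70 ± 0.09 (SE), which leaves 30.8% of the control level (limma, adjusted p = 0.0108). Myrf fell to 7.21 and 7.11 on the Sip1 cKO arrays, against 10.36 and 10.71 on the control arrays. Its log2 change was -3.38 ± 0.15 (SE), with 9.62% of the control level left (limma, adjusted p = 0.00691). Counted from the lowest log2 change of the 35557 clusters, Myrf ranked 25, Sox10 93, Nkx6-2 163, Zfp536 305, Olig1 576 and Olig2 711.

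Zfp536 read 6.83 and 6.82 on the Sip1 cKO arrays, against 8.16 and 8.01 on the control arrays. Its mutant arrays lay closer together than those of any other factor, 0.01 apart. Its log2 change was -1.26 ± 0.10 (SE), which leaves 41.8% of the control level (limma, adjusted p = 0.0269). The call was lost with the replicate number as a block (limma, adjusted p = 0.0763) and without any 1 array (0.0781 to 0.147), and over all alternatives the adjusted p ranged from 0.00296 to 0.147. That change lay between those of Olig1 and Olig2 on the one side and that of Nkx6-2 on the other.

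**Figure D2:**
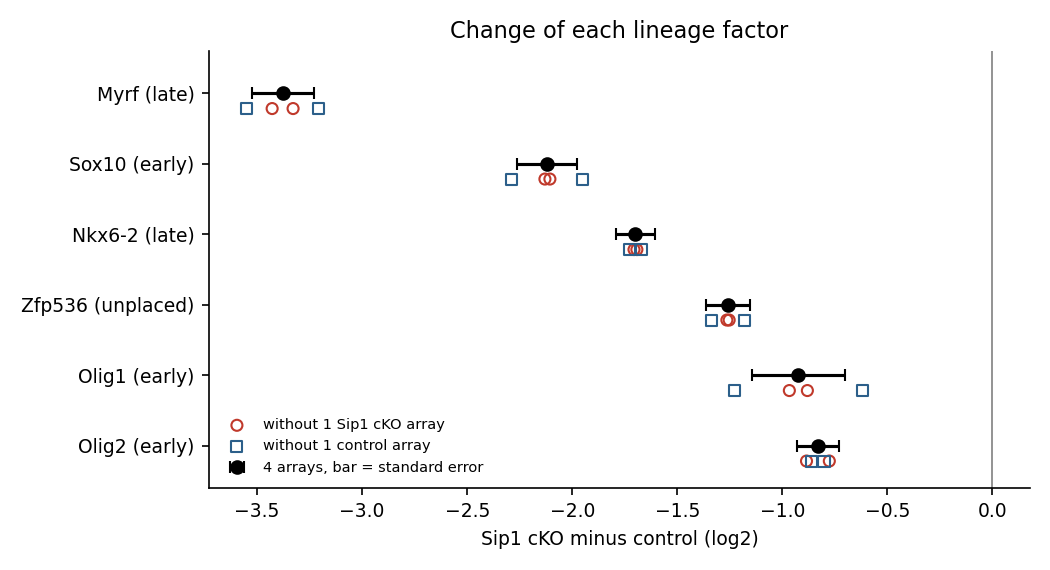
Log2 change, Sip1 cKO minus control, of each factor (horizontal axis), ordered from the lowest. Black points are the fit to 4 arrays with its standard error, and open symbols leave out 1 array. Sox10, an early factor, lies between the late factors Myrf at -3.38 and Nkx6-2 at -1.70, and Olig1 moves most when a control array is left out, between -1.23 and -0.62.

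The late factors had a lower log2 change than the early ones on average, but the measured changes did not fall in the order of the stages. This order compares different probes. Nkx6-2 and Zfp536 lay near the array medians of 6.62 and 6.66 in Sip1 cKO, and the values carry no measure of background, so whether background limits their changes, and with them the place of Sox10 ahead of Nkx6-2, was not tested. The mean log2 change was -2.54 for Nkx6-2 and Myrf and -1.29 for Olig1, Olig2 and Sox10, a difference of -1.25. With each gene centred on its mean over the 4 arrays, the late factors averaged -1.24 and -1.30 on the Sip1 cKO arrays, against 1.20 and 1.34 on the control arrays. The early factors averaged -0.62 and -0.67 on the Sip1 cKO arrays, against 0.48 and 0.81 on the control arrays. Late minus early was -0.62 on both Sip1 cKO arrays, against 0.72 and 0.53 on the control arrays, and these did not overlap. In 25.1% of single clusters both Sip1 cKO arrays likewise lay below both control arrays. The difference was -0.41 with Myrf left out and -1.66 with Sox10 left out, settings chosen after seeing the data, and -0.82 with Zfp536 counted as late. The difference was thus smallest without Myrf and largest without Sox10 among the settings run, and it was given no test.

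Pairs of factors were compared by the difference between their values on each array, as a description of how far the log2 changes of a pair differed. In 13 of the 15 pairs this difference did not overlap between the Sip1 cKO and control arrays. The 15 pairs reuse the same 6 genes, and the share over all pairs of genes was not counted. Among single clusters, both Sip1 cKO arrays lay below both control arrays in 25.1% and above both in 24.8%. The exact two-sided permutation test of 2 arrays against 2 cannot give a p under 0.333. The 13 pairs without overlap all had that value, so the differences stand as descriptions. The log2 change of Myrf minus that of Sox10 was -1.26, a difference that varied by at most 0.12 between replicate arrays. Sox10 against Nkx6-2 differed by -0.42, where replicates varied by up to 0.40. Nkx6-2 against Zfp536 differed by -0.44, with replicates within 0.10. The pairs that overlapped were Zfp536 with Olig1 (-0.33) and Olig1 with Olig2 (-0.09), both pairs that contain Olig1 and its spread control arrays. Zfp536 against Olig2 differed by -0.43 and did not overlap.

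**Figure D3:**
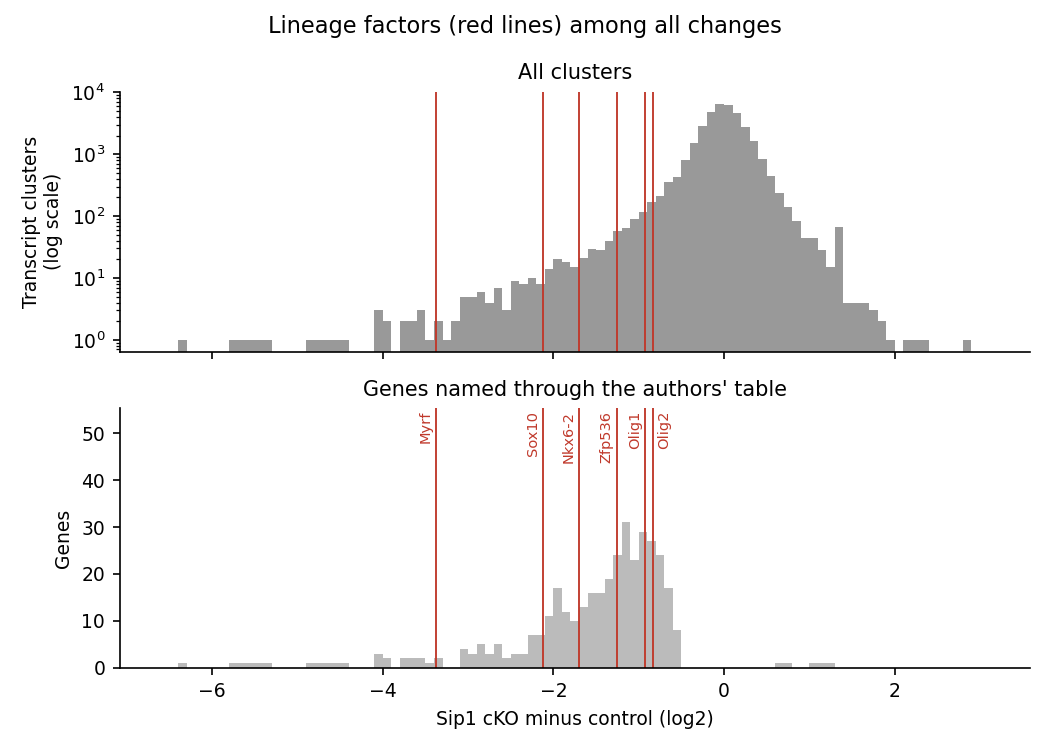
Distribution of the log2 change, Sip1 cKO minus control, over all 35557 clusters (top, counts on a log axis) and over the 369 named genes (bottom). Red lines mark the 6 factors, which all lie left of 0 between -3.38 and -0.83. The gap around 0 in the bottom panel is the fold limit of the authors' table.

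Of 30 other regulators of the lineage 5 are named singly in the table, and of these 2 fell and 3 missed the threshold, beside 55.3% of the table's named genes called lower. The count was 4 without dim clusters or without the lowest identifiers, 3 with an eBayes trend or array weights, and 1 with median centring or the replicate block. Their median log2 change was -1.30. Nfe2l3, a basic leucine zipper factor, fell by 1.62 (limma, adjusted p = 0.0305). Zfp488, a zinc finger partner of Olig2 that promotes differentiation, averaged 7.67 ± 0.04 in Sip1 cKO and 9.19 ± 0.28 in control (SD, n = 2 each) and fell by 1.52 (limma, adjusted p = 0.0358). St18, a zinc finger factor of the Myt1 family, had a log2 change of -1.30 (adjusted p = 0.0563). Sox8, the relative of Sox10 in the same SoxE group, had -0.69 (adjusted p = 0.204), with 9.16 and 9.33 on the Sip1 cKO arrays, against 9.71 and 10.16 on the control arrays. Chd7, a chromatin remodeller that works with Sox10 in oligodendrocytes, also had -0.69 (adjusted p = 0.121). None of the 5 had as low a change as Nkx6-2, Sox10 or Myrf.

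The genes reported as targets of Sox10 or Myrf that the authors' table names were mostly lower by more than the early factors. Of 14 on the list 11 are named, of which 10 fell and 1 missed the threshold, beside 55.3% of the table's named genes called lower. Their median log2 change was -3.37. The table was cut by fold on these samples, so neither their direction nor their count of calls is independent evidence. Listed targets that changed by less than 1.45-fold could not appear in it. The median and the comparisons of size below thus hold only for the 11 named targets. They also compare different probes that start from different levels. In control, Mog, Mag, Mobp and Trf averaged 12.08 to 12.87, Opalin 9.88, Sox10 9.74 and Myrf 10.53. Whether background limits the smaller changes was not tested. All 11 had a lower log2 change than Olig1 and Olig2, 9 had a lower one than Sox10 and 5 a lower one than Myrf. Those 5 were Mog, an outer myelin glycoprotein (-6.32), Mobp, a basic protein of compact myelin (-5.80), Mag, an adaxonal adhesion molecule (-5.61), Opalin, a glycoprotein of mature oligodendrocytes (-5.40) and Trf, the iron carrier transferrin (-4.54). Close to Myrf lay Erbb3, a neuregulin receptor (-3.37), and Plekhh1 (-3.08). Gjb1, a connexin of oligodendrocyte gap junctions, had a log2 change of -2.90, and Cnp, a phosphodiesterase of the cytoplasmic myelin channels, had -2.84. Rffl, a ubiquitin ligase, fell by 1.86, less than Sox10. Dusp15, a phosphatase, had a log2 change of -1.08 and did not pass (limma, adjusted p = 0.125).

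**Figure D4:**
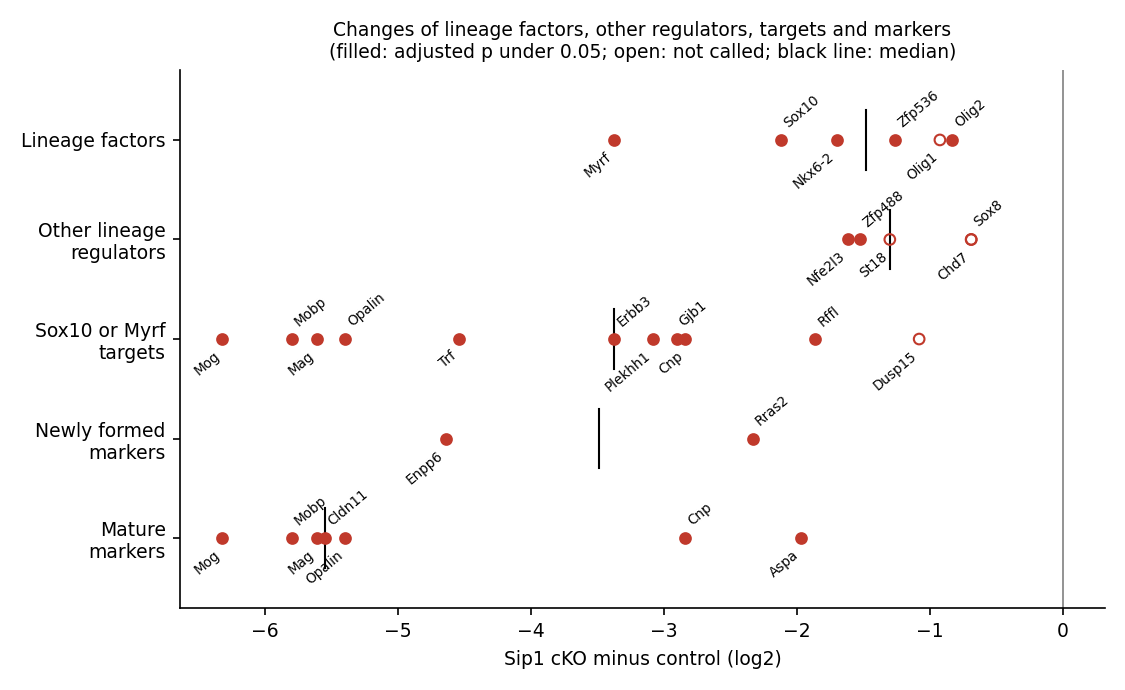
Log2 change, Sip1 cKO minus control, of the factors and of the listed genes that the authors' table names, with 1 row of points for each list. Filled points passed the test, open points did not, and the black line is the median, at -1.48 for the lineage factors, -1.30 for the other regulators and -3.37 for the targets.

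Stage markers could be read only where the authors' table names them, which is for 2 of 6 newly formed, 7 of 8 mature and 0 of 6 progenitor markers, so their shared direction is set by that choice. Of the newly formed markers, Enpp6, a choline phosphodiesterase, fell by 4.64, and Rras2, a small GTPase, fell by 2.33. All 7 named markers of mature oligodendrocytes fell, with a median log2 change of -5.55, where 55.3% of the table's named genes were called lower. With the replicate number as a block 5 of the 7 mature and 1 of the 2 newly formed markers passed. Besides Mog, Mobp, Mag, Opalin and Cnp these were Cldn11, the claudin of myelin tight junctions (-5.55), and Aspa, an enzyme that cleaves N-acetylaspartate (-1.97). Without control replicate 1 or without control replicate 2, 0 of the regulators, targets and markers passed limma at the adjusted threshold, and all of them were lower at an unadjusted p under 0.05. With Sip1 cKO replicate 1 or replicate 2 left out, 8 of the 11 targets and 0 of the 5 regulators passed, and 4 or 5 of the regulators were lower at an unadjusted p under 0.05.

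The factors were more even between the mutant arrays than several of the myelin genes. The Sip1 cKO arrays differed by 0.01 to 0.11 for the 6 factors, against a median of 0.11 over all clusters. They differed by 1.61 for Mog, 1.61 for Cldn11, 1.38 for Mag and 1.34 for Mobp, with Sip1 cKO replicate 2 the higher each time. In Mog the Sip1 cKO arrays read 5.74 and 7.35, while Myrf read 7.21 and 7.11 on the same arrays. The gap of Myrf, 0.10, was below the median of 0.11 over all clusters, so the order of its 2 values was not read. Of the factors 5 read lower on Sip1 cKO replicate 2, and of the 11 targets 9 read higher there. The median of all clusters was also lower on Sip1 cKO replicate 2, at 6.62 against 6.66 on replicate 1. Zfp536 and Nkx6-2 each differed by only 0.01, less than these medians did. The share of all clusters that read lower on replicate 2 was not counted. Opalin, with 4.52 and 4.45 on the Sip1 cKO arrays, and Rffl, with 6.56 and 6.52, did not share the spread of Mog. Plekhh1 (0.05), Gjb1 (0.08), Dusp15 (0.09) and Aspa (0.06) also differed by no more than the factors did. Opalin, Rffl, Plekhh1 and Gjb1 read below the array median on both Sip1 cKO arrays, and Dusp15 and Aspa above it. Whether low signal limits these gaps was not tested. Of the 11 targets 6 had a larger gap than every factor, so closeness of the mutant arrays was not particular to the factors. With 1 pair of arrays these gaps were not tested.

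**Figure D5:**
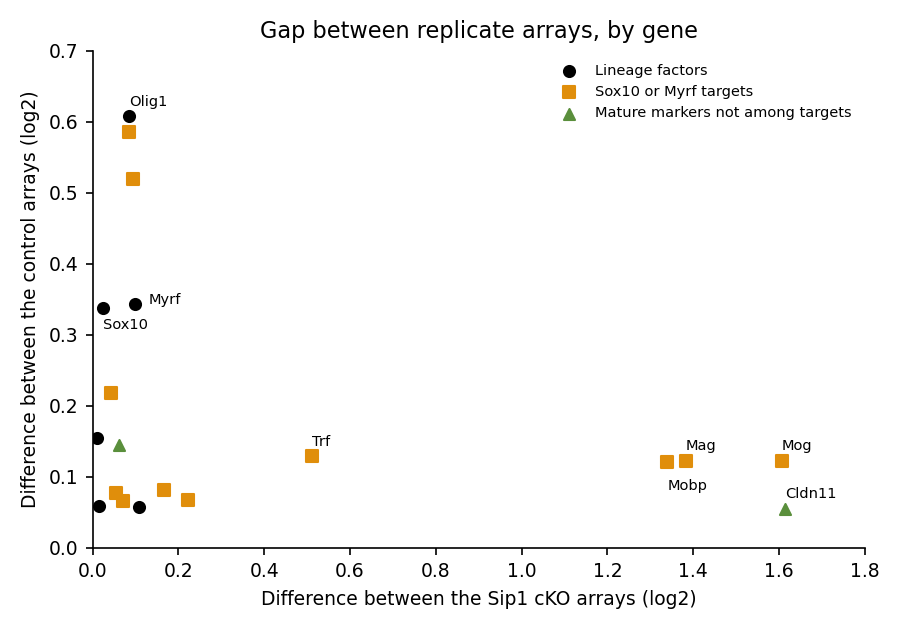
Absolute difference between the Sip1 cKO arrays (horizontal axis) and between the control arrays (vertical axis), in log2 units, with 1 point for each gene. The 6 factors lie at 0.11 or less on the horizontal axis, while Mobp, Mag, Mog and Cldn11 lie between 1.34 and 1.61. Olig1 has the widest control gap of the factors, 0.61.

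The named genes most like each factor across the 4 arrays were sought among the 363 others, by the root mean square difference of values centred on each gene's mean. Olig1 was nearest to Card19 (0.02) and Rdh11 (0.03), and Olig2 to Pcdh9 (0.02), a protocadherin, and Lzts2 (0.02). Zfp536 was nearest to Stxbp3 (0.02), a syntaxin-binding protein, and Rcbtb1 (0.07). Sox10 was nearest to Tmem159 and Secisbp2l (both 0.05), and Nkx6-2 to Otud7b and Plekhg3 (both 0.07). Myrf was nearest to Elovl7 (0.08), a fatty acid elongase that read 7.42 and 7.54 on the Sip1 cKO arrays, against 10.73 and 11.07 on the control arrays, and then to Erbb3 (0.13). The likeness is over 4 arrays in 2 groups, so genes with a like change and a like gap between the control arrays come out near each other.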

How the data were processed

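Total RNA of 4 mouse spinal cord samples, 2 Sip1 cKO and 2 control, was read on Affymetrix MoGene-1_0-st-v1 arrays (file headers). The deposited log2 values come from RMA, a tool named in the submitters' processing notes, which normalizes arrays to each other and so hides any shift common to most transcripts. Not given in the sources used here are the RMA version, the annotation of the probes and the build. The authors' deposited table holds 420 clusters selected by raw expression (10th to 100th percentile) and by a fold of at least 1.45, per the file headers. Per the file headers, the authors made its linear intensity values and centred log2 values as group means of these arrays, and its ratio is the higher over the lower mean. Genes were named only through its 375 clusters with 1 symbol, updated with RefSeq names (GRCm38.p6).

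Sip1 cKO minus control was fitted in R 4.3.3 by limma 3.58.1 (lmFit, then eBayes, two-sided) on 35557 clusters, with group as the sole factor and Benjamini-Hochberg adjustment across them. The procedure was tested on simulated data. Errors are SD of 2 arrays or the standard error of the fit. Factors and gene lists were chosen with earlier results of these data known. Named are the 6 factors, Zeb2, every listed gene that is the single symbol of a cluster, and the 2 genes nearest to each factor. One gene was taken off the list of targets after the fit and is not reported here. Same-numbered arrays hardly deviated together (r = 0.0764), so replicate numbers were not taken as pairs.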

Additional observations from a re-analysis of the deposited data

How the results depend on the processing

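Every factor stayed lower in Sip1 cKO under every alternative run. The number of factors past the threshold, 5 in the complete fit, was 0 to 1 when 1 array was left out (the lone array then being assumed to vary like the other group) and 3 with the replicate number as a block, which lost Olig2 and Zfp536 and left 1 residual degree of freedom. It was 4 to 6 under the other alternatives, where Olig2 was lost with median centring, robust eBayes, array weights and identical rows tested once, and Olig1 was gained at an unadjusted p under 0.05. Over all clusters the 383 calls (305 lower, 78 higher) became 0 to 60 with 1 array left out (0 without either control array, where 2949 and 3527 clusters were lower at an unadjusted p under 0.05), 111 with the replicate block, 894 without dim clusters, 603 with an eBayes trend, 818 without the lowest identifiers, 712 at an adjusted p under 0.1 and 5853 at an unadjusted p under 0.05 (3027 lower, 2826 higher). The 6 factors were all kept by the filter on dim clusters. Late minus early, -1.25, ranged from -1.34 to -1.15 with 1 array left out and was -0.82 with Zfp536 among the late factors, -1.66 without Sox10 and -0.41 without Myrf, the last 2 chosen after seeing the data. The cause of these shifts was not tested. Each factor had 1 cluster, so the mean of a gene's clusters gave no other value. The array values carry no measure of background, and 2 arrays a group limit every call.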

Other observations

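Hdac1, a histone deacetylase that acts with lineage regulators in oligodendrocyte differentiation, is named in the authors' table only together with a pseudogene copy, in 2 clusters, so its signal cannot be told apart from that of the copy. Cluster 10516605 read 8.92 and 9.01 on the Sip1 cKO arrays, against 9.35 and 9.74 on the control arrays, a log2 change of -0.58 (limma, adjusted p = 0.206). Cluster 10447004 read 8.76 and 8.85 on the Sip1 cKO arrays, against 9.21 and 9.62 on the control arrays, a log2 change of -0.61 (adjusted p = 0.205). Neither passed the test. In both clusters the 2 Sip1 cKO arrays lay below the 2 control arrays, as they did in 25.1% of all clusters. Both come from the table cut by fold on these arrays.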
